A study of Homo sapiens with 24 samples.

Results

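The genes described here are the 200 long noncoding RNA genes typed lincRNA or antisense with the most counted reads in A549 cells. A549 is an established human line from a lung adenocarcinoma. The 200 genes were chosen by summing the transcript counts of each gene of these types in GENCODE 29 and keeping the largest totals over all libraries. In all, 11678 genes of these types had a row in the table and 7687 had at least 1 count. Of the 200, 149 are typed antisense and 51 lincRNA. Long noncoding RNAs of other GENCODE types were left out whatever their counts, among them SNHG16 (64206 counts), TUG1 (57495) and OIP5-AS1 (41073). Poly-A RNA was sequenced from cells exposed for 1, 3, 5, 7, 9 or 11 hours to 100 nM dexamethasone (dex), a synthetic glucocorticoid that activates the glucocorticoid receptor, or to the vehicle ethanol (EtOH) at 0.02%. Each treatment and time point has 2 libraries, labelled as biological replicates, which makes 24 in 12 groups, and all come from 1 cell line. The methods text speaks of triplicates, whereas the labels used here mark replicates 1 and 2 in every group. Times were taken from the duration label, since another label, on the treatment, names 1 hour for each of the 24.

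Long noncoding RNAs are transcripts that are not known to code for a protein. Some stay in the nucleus and build or line nuclear bodies, some carry a microRNA or a small nucleolar RNA in an intron or exon, and many lie on the opposite strand of a protein-coding gene. In the last kind, a read of the antisense RNA and a read of the coding messenger RNA have the same letters once one of them is turned to its reverse complement. The libraries are stranded and the reads are 50 bases long, but the use of strand in the counting is not given in the sources used here, and neither is the placing of reads that match several transcripts.

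Library totals ran from 6708864 to 13748598 counts with dex and from 7813353 to 13619043 with EtOH. Among 8 known glucocorticoid targets all 8 were higher with dex at 5 hours, FKBP5, a co-chaperone of the receptor, by 3.75 on the log2 scale (standard error 0.12), as a check of the labels. All 7 epithelial markers were tested and each passed the test of dex against EtOH, described further on, at 1 time point or more. The keratins KRT8 and KRT18 were high in every library, at 1439 CPM or more, which are counts scaled to a common library size with the TMM factors and not corrected for gene length, but EPCAM lay between 4.10 and 11.1 CPM and KRT19 between 8.19 and 21.4. Of 12 markers of other cell types with a row in the table, 4 passed the filter on low counts. CD3E and SFTPA1 were at 0 in every library, PTPRC, VWF, SFTPC and SCGB1A1 reached at most 0.30 CPM, and CD14 had a median of 1.76 CPM. The collagen gene COL1A1 ran from 5.04 to 22.3 CPM and was higher with dex at 3 hours (0.56 on the log2 scale, adjusted p = 0.0343) and lower at 5, 7 and 9 hours (-1.21 at 5 hours, adjusted p = 1.35e-05), and its part in the results below was not tested. Some libraries stood apart for the members. Replicate 1 with EtOH at 7 hours held the highest value of the 24 for 23 of the 200 and the lowest for 18, replicate 2 with dex at 11 hours the highest for 20 and the lowest for 32, and replicate 2 with dex at 5 hours the highest for 18 and the lowest for 13. Of the 39 members whose sequence is largely their own, a class defined below, the first of these libraries held the highest value for 9 and the second the lowest for 6.

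The 200 members held 3221862 counts, which is 1.32% of all counts and 76.0% of those of the lincRNA and antisense types. Counts were concentrated in a few genes, with 49.9% of the members' counts in the first 5 and 64.3% in the first 15. These totals chose the members and are given as a description only. The last members inside the limit were AC018521.2 with 2425 counts and AL137186.2 with 2399, and the first genes outside it were DSG2-AS1 with 2398 and AF127577.4 with 2382. All 200 passed the filter on low counts, and the lowest count of a member in any library was 27.

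AC007098.1, an antisense gene on chromosome 2, was first with 578517 counts. Next came AC006064.4 with 433904, AC011603.2 with 261271, NEAT1 with 201268 and MALAT1 with 132082. NEAT1 is the scaffold RNA of paraspeckles and MALAT1 a nuclear RNA of the speckles where splicing factors gather. The following places were held by AC079328.2 (92407 counts), FGD5-AS1 (71868), NORAD (66735), AC021224.1 (58667) and AC026785.2 (36706). NORAD is a cytoplasmic RNA that binds Pumilio proteins. AC093484.3 (30742 counts), KCNQ1OT1 (27983), AC012640.4 (27111), AL135790.1 (26999) and AC125611.3 (26730) closed the first 15. KCNQ1OT1 is the antisense RNA of an imprinted domain. Per length the order differed: AC006064.4 had 4206 CPM per kilobase, AC011603.2 had 1438, AC007098.1 had 1145, MALAT1 had 449.7 and NEAT1, whose main transcript is 22743 bases long, had 64.9.

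**Figure D1:**
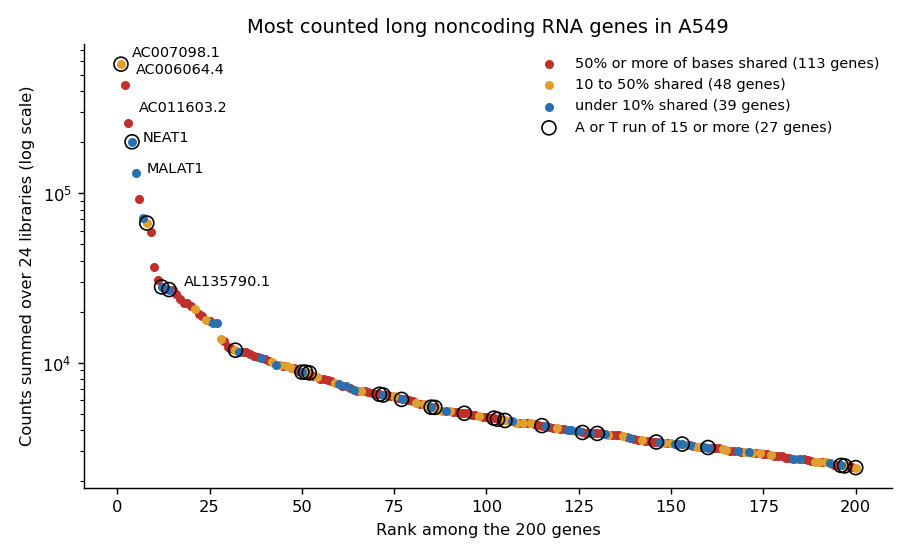
Counts summed over the 24 libraries (vertical axis, log scale) for the 200 members by rank, coloured by the share of the most counted transcript's bases that also occur in transcripts of other genes, with circles around the 27 genes whose most counted transcript has a run of 15 or more A or T. The first 3 genes, from 261271 to 578517 counts, are a run-bearing gene with 10 to 50% of shared bases and 2 genes with 50% or more. NEAT1, which also bears a run, is the first gene with under 10% of shared bases.

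Among the first 15, only NEAT1, MALAT1, FGD5-AS1, KCNQ1OT1 and AL135790.1 had under 10% of the bases of their most counted transcript in transcripts of other genes, at an identity of at least 96% over at least 50 bases. AC006064.4, on chromosome 12 from 6537794 to 6538370 (GRCh38, minus strand), lies wholly within exons of GAPDH, the glycolytic enzyme. AC011603.2 matched TUBA1B over 95.8% of its bases on the opposite strand, AC125611.3 matched TUBA1C over 93.8%, AC079328.2 matched TPM1 over 100%, AC093484.3 matched UBB over 100%, and AC012640.4 matched CCT5 over 68.9%. AC021224.1 lies on chromosome 18 in the gene GAREM1, yet all of its bases matched HNRNPA1, which codes for an RNA-binding protein and lies elsewhere. AC026785.2 on chromosome 5 shares bases with FTH1, the ferritin heavy chain on chromosome 11. The stretches below, from GENCODE 29 transcripts on GRCh38, show what such a match means for a read of 50 bases. The first pair is the same place, chr12:6537865-6537914, read on the minus strand in AC006064.4 and on the plus strand in GAPDH, each the reverse complement of the other.
AC006064.4: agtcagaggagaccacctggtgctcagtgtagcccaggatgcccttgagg
GAPDH: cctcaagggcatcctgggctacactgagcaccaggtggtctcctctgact
The second pair is DDIT4-AS1 and the coding part of DDIT4 at chr10:72275025-72275074, likewise reverse complements.
DDIT4-AS1: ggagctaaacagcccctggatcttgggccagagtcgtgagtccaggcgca
DDIT4: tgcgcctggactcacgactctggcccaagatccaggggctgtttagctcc

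Over all members, 113 shared 50% or more of the bases of their most counted transcript with other genes, and these held 51.5% of the members' counts. For 106 of them the opposite strand alone reached 50%, and 59 were covered wholly. A further 48 members shared 10 to 50%, and 39 shared under 10% and are called own-sequence members here. The limits of these classes were set after values had been seen. Of the own-sequence members 24 were typed lincRNA and 15 antisense, against 14 and 99 in the class with 50% or more.

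Long runs of A or T occurred in some of these genes, as in transcripts at large. A run of 15 or more lay in 6.33% of the members' transcripts, against 5.39% of all transcripts with a sequence. Transcripts with such a run held 30.7% of the counts of the members' transcripts, against 16.9% over all transcripts. AC007098.1 alone held 578517 of the members' 3221862 counts. The most counted transcript had a run of 15 or more in 27 members, which held 31.6% of the members' counts, and 34 members had such a run in any transcript. The own-sequence class was set without regard to runs. Of its 39 members, 10 were among these 27, NEAT1 and AL135790.1 included. In 3 members the run was 30 bases or longer. In AC007098.1 it was 50 A at the very end of a transcript of 2069 bases, so that a read made of A alone fits it. These stretches carry the longest runs, in capitals, with up to 20 bases on each side, and WAC-AS1 is shown as a shorter one.
AC007098.1 (chr2:63043922-63043991): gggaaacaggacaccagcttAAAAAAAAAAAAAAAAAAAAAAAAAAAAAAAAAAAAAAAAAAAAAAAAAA
AL135790.1 (chr9:10631757-10632131, spliced): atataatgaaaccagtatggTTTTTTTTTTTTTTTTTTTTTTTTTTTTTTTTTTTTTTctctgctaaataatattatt
AL035078.1 (chr11:32036675-32036752): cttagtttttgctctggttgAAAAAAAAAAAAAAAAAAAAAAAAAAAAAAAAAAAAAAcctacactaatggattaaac
WAC-AS1 (chr10:28523554-28523619): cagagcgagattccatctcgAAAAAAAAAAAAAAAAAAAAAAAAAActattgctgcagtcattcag
All 4 are read on the minus strand of GRCh38 from GENCODE 29 transcripts. AL135790.1 is 157 bases long, of which its run takes 38.

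The 3 genes with the longest runs varied widely between libraries of 1 group. AC007098.1 had 2818 and 5288 CPM in the 2 dex libraries at 1 hour against 2154 and 2105 with EtOH, and 4028 and 2095 CPM in the 2 EtOH libraries at 7 hours against 2224 and 2003 with dex. Replicate 2 with dex at 1 hour, the library with the fewest counts, held the highest value of all 24 for AC007098.1, for AL135790.1 (292 CPM, 145 in replicate 1) and for AL035078.1 (71.1 CPM, 34.8 in replicate 1). Replicate 1 with EtOH at 3 hours stood over its group in the same 3 genes, with 3366 against 2137, 170.3 against 96.9 and 39.9 against 22.7 CPM. AC007098.1 and AL135790.1 did not pass the test at any time, with log2 fold changes from -0.53 to 0.94 and from -0.77 to 0.66. AL035078.1 passed at 7 hours alone, where its dex libraries had 19.1 and 17.8 CPM and its EtOH libraries 35.3 and 22.1. The part of read quality or of library preparation in this spread was not tested.

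**Figure D2:**
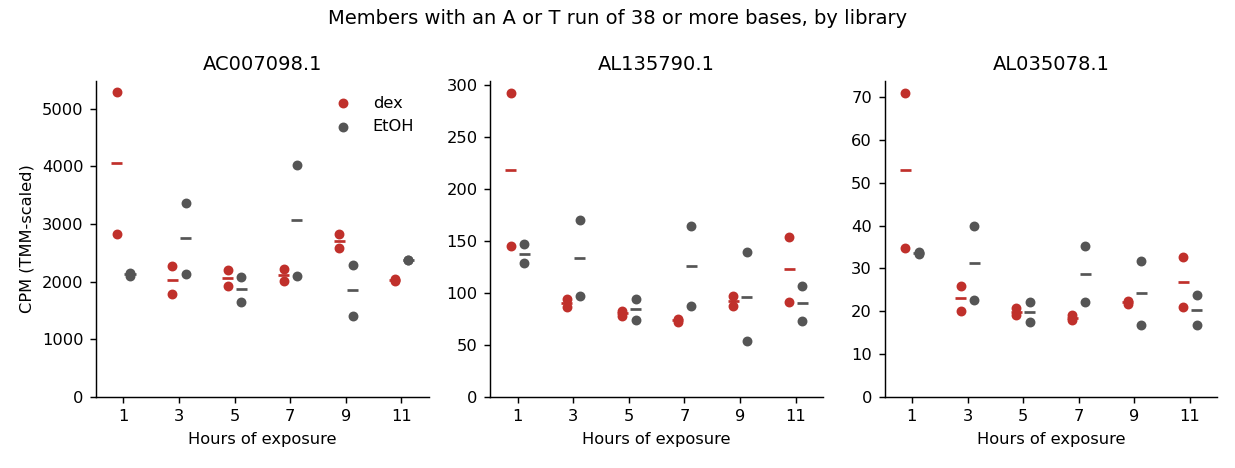
CPM of the 3 members with a run of 38 or more A or T (vertical axes, each from 0) by hours of exposure, with dex libraries in red, EtOH libraries in grey and group means as short bars. The highest point of each panel, 5288, 292 and 71.1 CPM, is replicate 2 with dex at 1 hour.

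To ask which of these genes respond to the glucocorticoid, the 2 dex libraries were set against the 2 EtOH libraries at each time point with the quasi-likelihood test of edgeR. The p-values were adjusted by the Benjamini-Hochberg method over 19897 features, and an adjusted p of at most 0.1 was called. At 1 hour 2 members were called (1.0%, against 0.864% of all features tested), 2 higher and 0 lower (0.523% and 0.342% of all features). At 3 hours 33 were called (16.5%, against 12.9%), 17 higher and 16 lower (7.66% and 5.29%). At 5 hours the count was 50 (25.0%, against 23.1%), 27 higher and 23 lower (11.2% and 11.9%). At 7 hours it was 57 (28.5%, against 25.8%), 27 higher and 30 lower (13.4% and 12.4%). At 9 hours 33 members passed (16.5%, against 18.2%), 22 higher and 11 lower (9.79% and 8.42%). At 11 hours 20 passed (10.0%, against 8.58%), 13 higher and 7 lower (5.31% and 3.27%). The members' median log2 fold change lay between -0.02 and 0.05 at every time, as that of all features lay between -0.01 and 0.00. The members' shares lay near those of all features. In bulk RNA, a change in the number of cells that carry an RNA and a change in its amount per cell cannot be told apart. Single libraries weighed heavily in these counts. Without dex replicate 1 or 2 the count at 1 hour was 14 or 15, and without EtOH replicate 1 it was 4. At 3 hours it was 51 without dex replicate 2, and at 7 hours it was 25 without dex replicate 1 and 34 without dex replicate 2. At 9 hours it was 12 or 17 without dex replicate 1 or 2 and 71 or 61 without EtOH replicate 1 or 2, and at 11 hours 79 or 45 and 9 or 7 in the same order.

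**Figure D3:**
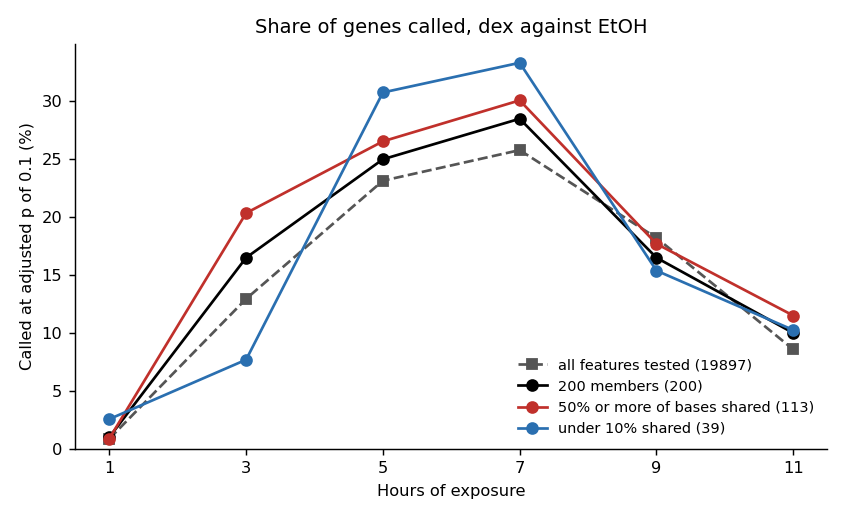
Percent of genes with an adjusted p of at most 0.1 (vertical axis) by hours of exposure, for all 19897 features tested (dashed), the 200 members (black), the 113 with 50% or more of shared bases (red) and the 39 own-sequence members (blue). The members run from 1.0% at 1 hour to 28.5% at 7 hours beside 0.864% and 25.8% of all features.

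Across time points, 90 members were called at least once (41.5% of all features were) and 110 never. At 2 or more consecutive times 39 were called (19.5%, against 18.9%), and 36 of these kept 1 direction with the dex and EtOH libraries not overlapping at each passing time, 21 higher and 15 lower (18.1% of all features did so, 9.53% higher and 8.54% lower). Of the other 3, AC006058.1, ERVK9-11 and AC008569.1, each passed in both directions at different times. Of the 36, 23 were in the class with 50% or more of shared bases, 7 shared 10 to 50%, and 6 were own-sequence members.

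MIR503HG, the own-sequence host gene of miR-503 on chromosome X from 134543337 to 134546632 (minus strand), was higher with dex from 3 to 11 hours. At 1 hour it had 15.3 and 13.0 CPM with dex and 9.04 and 9.65 with EtOH, and at 3 hours 24.4 and 30.8 against 9.38 and 12.9. At 5 hours it had 16.9 and 22.0 against 12.8 and 10.2, and at 7 hours 22 and 17.8 against 10.5 and 12. At 9 hours it had 32.6 and 24.1 against 11.1 and 6.48, and at 11 hours 30.8 and 20.9 against 10.3 and 10.1. Each dex library stood over both EtOH libraries of its time. The log2 fold change was 1.29 at 3 hours (standard error 0.16, adjusted p = 6.73e-07), 0.75 at 5 hours and 1.67 at 9 hours (standard error 0.23, adjusted p = 0.000332), while at 1 hour it was 0.62 and did not pass (adjusted p = 0.261). No protein-coding gene overlapped it on the opposite strand, and none of its bases were shared.

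MIR22HG, the host gene of miR-22 on chromosome 17 from 1711493 to 1717174 (minus strand), was higher from 5 to 11 hours. It had 47.9 and 49.4 CPM with dex at 1 hour against 64.1 and 60.8 with EtOH, and 58.2 and 70.9 against 51.3 and 55.1 at 3 hours. At 5 hours the dex libraries had 79.6 and 103 CPM and the EtOH libraries 49.6 and 55.6, and at 9 hours 109 and 115 against 64.4 and 57.9. The groups did not overlap at any of these times, with dex below EtOH at 1 hour and above it from 3 hours. The log2 fold change was -0.35 at 1 hour (adjusted p = 0.44), 0.78 at 5 hours (standard error 0.12, adjusted p = 1.28e-06) and 0.88 at 9 hours (adjusted p = 7.67e-05). Its effect differed between the time points (adjusted p = 0.000175). WDR81, the coding gene on the opposite strand, shared no exon base with it and had log2 fold changes from -0.10 to 0.39, of which the last, at 3 hours, passed.

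LINC02086 and MEG3 were the own-sequence members among the lower genes. LINC02086, on chromosome 17 from 48646923 to 48707346 (plus strand), had 6.23 and 6.27 CPM with dex at 5 hours and 12.3 and 13.4 with EtOH. The difference was -1.05 on the log2 scale (standard error 0.20, adjusted p = 6.93e-05), with no overlap. It also passed at 3, 7 and 11 hours, with -0.59, -0.61 and -0.77. MEG3, an imprinted RNA linked to p53, on chromosome 14 from 100779410 to 100861031 (plus strand), had 17.6 and 18.5 CPM with dex at 5 hours and 30.4 and 29.3 with EtOH. At 7 hours it had 26.0 and 18.4 against 40.3 and 33.4. The groups were apart at both times, and the log2 fold changes were -0.73 (adjusted p = 9.12e-05) and -0.71 (adjusted p = 0.000349). At 1, 3, 9 and 11 hours the dex and EtOH libraries of MEG3 overlapped, with log2 fold changes from -0.14 to 0.27. The calls of MEG3 were lost in one fit over all 24 libraries (adjusted p = 0.165 at 5 hours and 0.167 at 7 hours).

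NEAT1 and MALAT1 varied widely between libraries of the same group. NEAT1 had 875 and 1212 CPM with dex at 5 hours and 769 and 727 with EtOH, which is 0.47 higher on the log2 scale (standard error 0.12, adjusted p = 0.00408). At 9 hours it had 1166 and 873 against 725 and 429 CPM, which is 0.83 higher (standard error 0.28) and did not pass (adjusted p = 0.129). The groups did not overlap at 5 and 9 hours, but at 1, 3, 7 and 11 hours they did, and the call at 5 hours was lost without replicate 2 with dex (log2 fold change 0.22, adjusted p = 0.241). It was also lost once transcripts with a long run, among them the one of 22743 bases, were left out (0.20, adjusted p = 0.280). MALAT1 was one of the 2 members called at 1 hour, with 664 and 565 CPM with dex and 458 and 392 with EtOH, which is 0.54 higher on the log2 scale (standard error 0.11, adjusted p = 0.0241). It was not called without EtOH replicate 2 (adjusted p = 1.00) or in one fit over all libraries (adjusted p = 0.899). At 11 hours it was lower, with 349 and 262 against 370.4 and 666 CPM (-0.76, adjusted p = 0.0594), and that call was lost with DESeq2 (adjusted p = 0.633) and without either dex replicate. At 5 hours its dex libraries had 331 and 878 CPM on both sides of the EtOH libraries at 391 and 507.

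**Figure D4:**
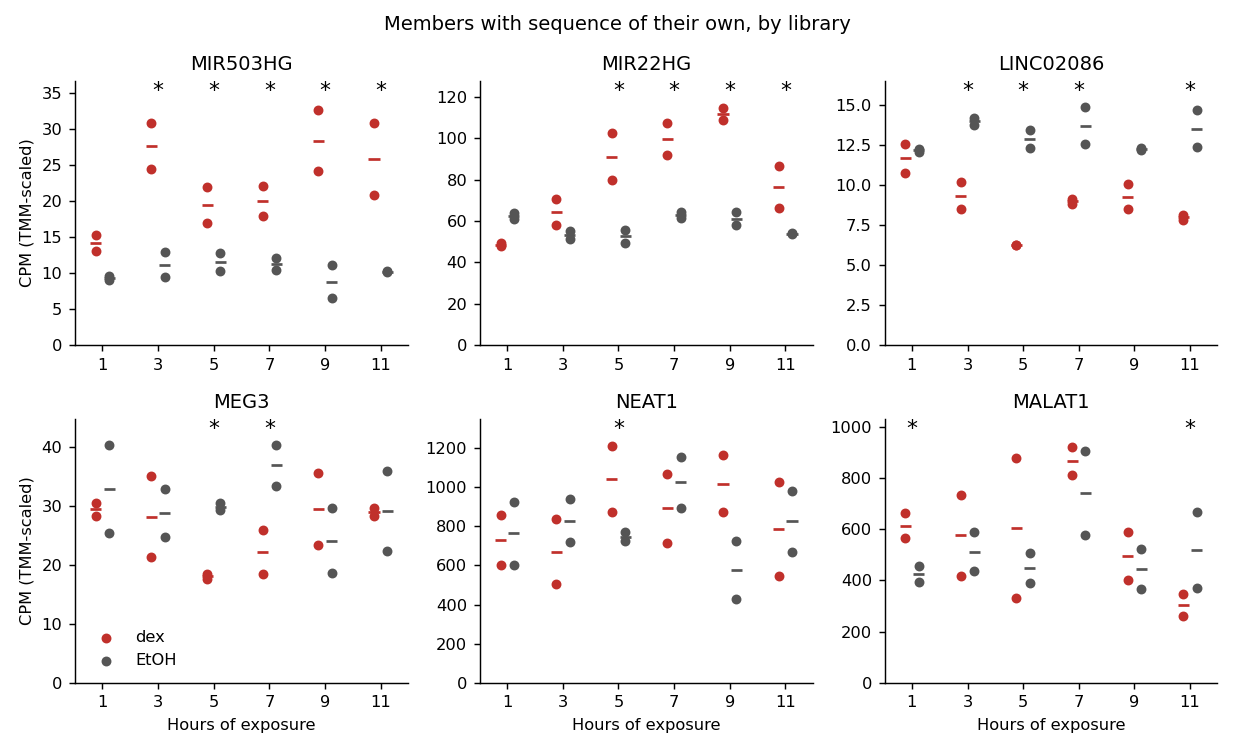
CPM of 6 own-sequence members (vertical axes, each from 0) by hours of exposure, with dex libraries in red, EtOH libraries in grey, group means as short bars, and stars at times with an adjusted p of at most 0.1. In MIR503HG the red points lie over the grey ones at all 6 times, and in MALAT1 the points of 1 group lie as far apart as 331 and 878 CPM.

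Among the 39 own-sequence members, 1 was called at 1 hour (2.56%, against 0.864% of all features), 3 at 3 hours (7.69%, against 12.9%) and 12 at 5 hours (30.8%, against 23.1%), of which 9 were higher. At 7 hours 13 were called (33.3%, against 25.8%), 5 of them higher, at 9 hours 6 (15.4%, against 18.2%), all 6 higher, and at 11 hours 4 (10.3%, against 8.58%). Of the 39, 29 had no run of 15 or more A or T in the most counted transcript. Among these 29, 1, 3, 10, 12, 6 and 4 were called from 1 to 11 hours. These are 3.45%, 10.3%, 34.5%, 41.4%, 20.7% and 13.8%, beside 0.864%, 12.9%, 23.1%, 25.8%, 18.2% and 8.58% of all features. Single libraries weighed on most of the counts over all 39. At 1 hour the count was 4 or 3 without dex replicate 1 or 2, and at 3 hours it was 5 or 10 without them and 5 or 7 without EtOH replicate 1 or 2. At 5 hours it stayed between 9 and 15. At 7 hours it was 4 or 5 without dex replicate 1 or 2 and 18 without EtOH replicate 2. Replicate 1 with EtOH at 7 hours held many of the highest values, and without it 9 were called, 5 higher and 4 lower, of which 6 were called with all libraries. At 9 hours the count was 2 or 4 without dex replicate 1 or 2 and 13 or 15 without EtOH replicate 1 or 2, and in each of the last 2 fits 3 members were lower. At 11 hours it was 16 or 7 and 2 or 1 in the same order. Single-time calls of lncRNAs named for other reasons in this class depended on the setting. Those of SNHG7, SNHG19 and PURPL at 7 hours and of SNHG15 and CRNDE at 5 hours were each lost with DESeq2 and in 3 of the 4 fits that left out 1 library. SNHG19, which hosts a snoRNA, had 12.8 and 12.4 CPM with dex and 21.5 and 14.6 with EtOH at 7 hours, and PURPL, a p53 target, had 10.0 and 9.12 against 15.9 and 11.9. The higher value of each EtOH pair was replicate 1, and without it the log2 fold changes moved from -0.51 to -0.21 and from -0.53 to -0.31.

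Of the 113 members with 50% or more of shared bases, 30 were called at 5 hours (26.5%, against 23.1% of all features), and in many pairs the member and the gene that shares its bases changed in the same direction. DDIT4-AS1, covered wholly by DDIT4 on the opposite strand, had 217 and 195 CPM with dex at 5 hours and 94.8 and 69.9 with EtOH. DDIT4, a stress-induced inhibitor of mTOR signalling, had 220.1 and 199.1 against 99.6 and 79.9. Their log2 fold changes were 1.32 (standard error 0.12, adjusted p = 2.00e-10) and 1.22 (adjusted p = 2.66e-12) at 5 hours, and 1.45 and 1.17 at 7 hours. DDIT4-AS1 held 92.8% as many counts as DDIT4 in all. PXN-AS1, which shares 70.5% of its bases with PXN, the focal adhesion protein paxillin, had 174 and 139.9 CPM with dex and 85.0 and 63.9 with EtOH at 5 hours. Its log2 fold changes were 1.07 at 5 and 1.52 at 9 hours, and those of PXN 1.23 and 1.12.

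Other higher members are given beside the gene that shares their bases. EPB41L4A-AS1, a snoRNA host, rose by 1.24 at 5 hours (19.2 and 16 CPM against 7.50 and 7.33), and EPB41L4A by 1.31. KRT7-AS rose by 1.10 (125 and 137 CPM against 65.4 and 56.5) and KRT7, an epithelial keratin, by 0.94, although only 17.0% of the bases of KRT7-AS are shared. AC108863.1 and PLEKHA2 rose by 1.25 and 1.01, and AC124066.1 and EPN2 by 0.50 and 0.56. AC026785.2 rose by 0.92 at 5 hours, with 194 and 224 CPM against 113 and 107, while FTH1 rose by 0.52. AL451085.2, the member called at all 6 times, had 50.5 and 57.0 CPM with dex at 1 hour and 39.3 and 35.4 with EtOH, and 87.3 and 89.0 against 32.6 and 32.5 at 9 hours. Its log2 fold change was 0.53 at 1 hour (adjusted p = 0.0932) and 1.45 at 9 hours (adjusted p = 6.14e-07). SHC1, an adaptor of receptor tyrosine kinases with which it shares 40.8% of its bases, had 0.25 at 1 hour, which did not pass, and 1.24 at 9 hours, and the opposite-strand gene PYGO2 had values from -0.14 to 0.19, none of which passed.

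AL139220.2, on chromosome 1 from 44030443 to 44115913 (plus strand), had the largest mean log2 fold change of the higher members over the times at which each passed. It had 27.3 and 40.7 CPM with dex and 10.4 and 11.5 with EtOH at 5 hours, and 24.9 and 41.7 against 10.5 and 10.3 at 11 hours. The groups were apart at both times, with log2 fold changes of 1.62 (standard error 0.17, adjusted p = 1.62e-09) and 1.68 (adjusted p = 0.000478). AL139220.2 did not pass at 1 and 9 hours, where the groups overlapped and the log2 fold changes were 0.13 and 0.39. The shared bases, 52.5%, lie in the keratin pseudogene KRT8P47 on the opposite strand, whose parent KRT8 rose by 1.30 at 5 hours. SLC6A9, the glycine transporter gene that overlaps it without sharing an exon base, was lower at 5 hours (-0.85, adjusted p = 0.00527).

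Among lower members, AC009630.2 had 10.8 and 9.75 CPM with dex at 5 hours and 26.2 and 20.6 with EtOH (-1.18 on the log2 scale, adjusted p = 3.60e-07), and GINS4, a subunit of the replicative helicase that covers it wholly, had -1.09. TMPO-AS1, with 21.2% of its bases in TMPO, the gene of a nuclear lamina protein, had 9.29 and 8.40 CPM against 20.3 and 21.0 (-1.23), and TMPO had -0.68. AC092115.2 and NQO1, a quinone reductase, had -0.77 and -0.57 at 5 hours, but at 3 hours only AC092115.2 passed (-0.55 beside 0.06). AC105105.1 and ALPK2 had -0.76 and -0.59, AL355075.3 and PNP -0.44 and -0.37, USP3-AS1 and USP3 -0.65 and -0.37, PRC1-AS1 and PRC1, a protein of the spindle midzone, -0.71 and -0.40, and AC027228.2 and CHRNA5 -0.71 and -0.63. All of these passed the test at 5 hours. AL365181.3 passed from 5 to 9 hours (-0.60 at 5 hours), while BCAN, which covers 10.2% of it, had 147 counts in all and did not pass.

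Over the 111 members with 50% or more of shared bases and a tested counterpart (107 distinct genes, since 1 counterpart served 3 members), 29 members and 34 counterparts were called at 5 hours (23.1% of all features were), 22 pairs in both, all in the same direction. At 7 hours the numbers were 33, 45 and 24, again all in 1 direction, where 25.8% of all features were called. Across these pairs Pearson's r between the log2 fold changes was 0.42 at 1 hour, 0.67 at 3, 0.80 at 5, 0.70 at 7, 0.67 at 9 and 0.64 at 11 hours, and for the 37 pairs with 10 to 50% shared it ran from 0.06 at 1 hour to 0.67 at 7 hours. These are descriptions across genes, read in the same libraries, and a read of shared sequence can belong to either gene. RNA from the member and RNA from its counterpart cannot be told apart in these counts. Some pairs moved apart. AC006064.4 was lower at 3 hours (1373 and 1857 CPM with dex, 2215 and 2237 with EtOH, -0.47, adjusted p = 0.00571) and at 7 hours (-0.22), where GAPDH had 0.00 and 0.01 and did not pass, while AC011603.2 and TUBA1B were both lower at 5 hours (-0.70 and -0.55). The 3 members that share bases with NEDD4, among them UGDH-AS1, had no call at 5 hours, UGDH-AS1 with 24.1 and 21.0 CPM with dex and 20.2 and 22.7 with EtOH, beside a log2 fold change of 1.44 for NEDD4.

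**Figure D5:**
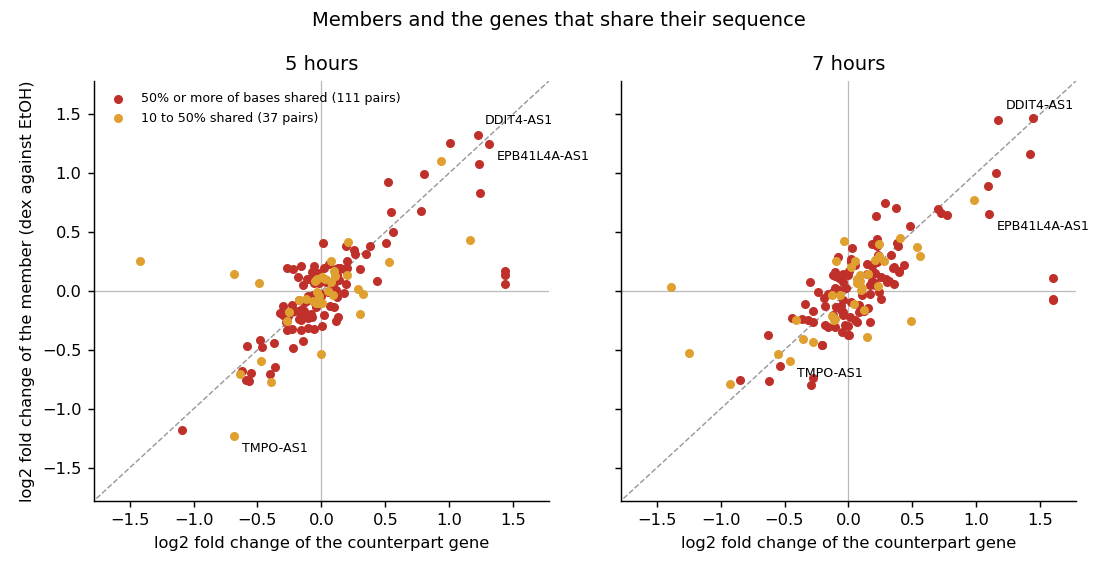
Log2 fold change of each member (vertical axis) against that of its counterpart gene (horizontal axis) at 5 and at 7 hours. The counterpart was chosen by the product of covered share and counts. Shown are 111 pairs with 50% or more of shared bases (red) and 37 with 10 to 50% (amber), with the line of equal change dashed. Most points lie along the line, DDIT4-AS1 at 1.22 and 1.32 at 5 hours, and 3 members stand at 1.44 on the horizontal axis with values near 0.

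Several members host microRNAs, small RNAs that pair with messenger RNAs mainly through bases 2 to 8, the seed. Mature microRNAs were not measured in these poly-A libraries, so the values are those of the host RNA. The sequences are from RefSeq on GRCh38.p14 with the seed in capitals, and are shown because MIR503HG and MIR22HG rose, MIR4435-2HG fell, and the seed of miR-503-5p differs from that of the miR-497 and miR-195 pair only in its last base.
miR-503-5p (MIR503HG): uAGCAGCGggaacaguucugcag
miR-497-5p (MIR497HG): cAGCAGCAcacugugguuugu
miR-195-5p (MIR497HG): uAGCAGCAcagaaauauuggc
miR-22-3p (MIR22HG): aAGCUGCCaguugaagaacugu
miR-4435 (MIR4435-2HG): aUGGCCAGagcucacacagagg
miR-770-5p (MEG3): uCCAGUACcacgugucagggcca
MIR497HG was not called at any time, with log2 fold changes from -0.32 to 0.45. MIR4435-2HG, on chromosome 2 from 111036776 to 111523376 (minus strand), had 13.1 and 11.9 CPM with dex and 23.1 and 19.7 with EtOH at 5 hours, and 9.83 and 11.3 against 18.9 and 19.8 at 11 hours. All dex libraries from 3 hours on lay below the EtOH libraries, and the differences on the log2 scale were -0.55 at 3 hours, -0.78 at 5 hours (standard error 0.16, adjusted p = 0.000299) and -0.88 at 11 hours (adjusted p = 0.0130). It shares 28.6% of its bases on the same strand with its copy CYTOR, which had 1592 counts and passed at 7, 9 and 11 hours with -0.93, -1.19 and -0.82, so reads of the 2 genes may be mixed. FTX, an X-linked microRNA host, was lower at 3 hours alone (23.9 and 27.4 against 33.4 and 33.8 CPM, -0.39, adjusted p = 0.0547), a call that was lost with DESeq2 (adjusted p = 0.233). Of the 11 tested genes in the list of microRNA hosts, 7 were called at least once (41.5% of all features were), and at 5 hours 2 were higher and 2 lower (11.2% and 11.9% of all features). The median log2 fold change of the list was -0.10 at 5 hours, beside 0.00 of all features. MIR31HG, not a member, was lower at 5, 7 and 9 hours, with -0.63 at 7 hours (adjusted p = 0.0352).

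Of the snoRNA host genes, which are spliced RNAs with small nucleolar RNAs in their introns, 23 were tested and 8 called at least once, beside 41.5% of all features, and 2 were higher and 2 lower at 5 hours (11.2% and 11.9%), with a median of 0.06. Members on this list were ZFAS1, SNHG7, SNHG8, SNHG10, SNHG12, SNHG15, SNHG19 and EPB41L4A-AS1. SNHG10 had 21.0 and 25.4 CPM with dex at 5 hours and 31.2 and 35.7 with EtOH (-0.54, adjusted p = 0.00326), while ZFAS1, SNHG8 and SNHG12 were not called at any time. A list headed nuclear body RNAs had 7 tested genes, but its heading does not describe all of them. NORAD, for one, is cytoplasmic, and the list is not 1 class of RNA. Of the 7, 6 were called at least once, beside 41.5% of all features, and at most 2 at any time in 1 direction. NORAD was lower at 3 hours alone (225 and 255 against 309.7 and 269 CPM, -0.28, adjusted p = 0.0811), which was lost with DESeq2 (adjusted p = 0.206), and KCNQ1OT1 was not called.

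Of 19 tested lncRNAs linked to cancer 9 were called at least once (41.5% of all features were), with 2 higher and 4 lower at 5 hours (11.2% and 11.9%) and a median of -0.10. The members CRNDE and MEG3 were among them, and PVT1, LINC01234 and HOTAIRM1 were not called. CRNDE had 9.94 and 10.9 CPM with dex at 5 hours and 14.1 and 14.8 with EtOH (-0.48, adjusted p = 0.0533). The largest change on the list was in LUCAT1, not a member with 1622 counts, which fell by 1.94 on the log2 scale at 5 hours (standard error 0.29, adjusted p = 6.39e-07). H19 was higher (1.34, adjusted p = 0.000287) and LINC00261 lower (-0.96, adjusted p = 0.0258) at the same time. Of 8 tested HOX cluster lncRNAs 4 were called at least once, 1 of them at 5 hours and lower, and of 5 tested lncRNAs linked to p53, NEAT1, MEG3 and PURPL among them, 4 were called at least once, both beside 41.5% of all features.

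Whether the dex effect changed over time was tested by the interaction of treatment and time in one fit. It passed for 21 members (10.5%, against 13.8% of all features), 4 of them own-sequence members. Level changes over time in EtOH alone passed for 15 members (7.5%, against 3.33%), and 13 of these had 50% or more of shared bases. Among them were AC006064.4, with group means from 1685 CPM at 11 hours to 2226 at 3 hours, AC093484.3, from 86.5 CPM at 7 hours to 174 at 9 hours, DDIT4-AS1, from 42.6 at 7 hours to 82.4 at 5 hours, and AL139220.2, from 10.4 at 11 hours to 19.7 at 1 hour.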

How the data were processed

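Per the paper's methods, the authors mapped stranded 50-base reads to GENCODE transcripts with Bowtie and took the number on each transcript from samtools. The deposited values are whole-number counts with no normalization. The submitters' processing notes name hg19, while coordinates and sequences here are those of GENCODE 29 on GRCh38. Transcripts were joined by identifier without version (110262 of 119207 rows, 94.1% of counts) and summed per gene. The members, lists and tests were chosen with earlier results of these data known. Named are the 15 most counted members, those called at 1 hour, the members of 6 lists written by hand, and, of members called at 2 or more consecutive times in 1 direction without overlap, the 12 with the largest mean change each way. The change of 1 of these is not reported here. UGDH-AS1, WAC-AS1, MIR497HG, AL035078.1 and the 3 members with both directions were named after their values were seen.

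Each time point was tested by itself with edgeR 4.0.16 (TMM, filterByExpr over the 12 groups, robust quasi-likelihood F test, Benjamini-Hochberg adjustment, threshold 0.1). A standard error is the size of the log2 fold change over the square root of F. The test was checked on simulated counts for 5 and 11 hours, with the same dispersion for all genes and no library set apart. It recovered 84% and 78% of 2-fold changes, and 7.07% and 6.84% of its calls were false. Data in which single libraries stand apart, as here, are not covered by this check. The p-values rest on the spread between 2 libraries a group, moderated for each gene toward the trend over all features tested. Shared sequence was found with blastn 2.17.0 against all GENCODE 29 transcripts, and a counterpart is the tested gene with the largest product of covered share (at least 10%) and counts. A gene that is itself typed lincRNA or antisense was taken as counterpart only where no other gene was found. Alternatives were DESeq2 1.42.0 and its size factors, other count filters, a fit of all 24 libraries at once, a block for the replicate number, a threshold of 0.05, no transcripts with runs, the most counted transcript alone, and leaving out each library. A cover of 80% and own-sequence members alone, which group the members otherwise without a new fit, were added after seeing the data. R was 4.3.3, Python 3.11.15 and matplotlib 3.10.9.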

Additional observations from a re-analysis of the deposited data

Results flagged for a closer look

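For 12 of the members named for their dex response, the effect differed between the time points by the interaction test (quasi-likelihood F test of edgeR, all 24 libraries in one fit, Benjamini-Hochberg adjusted). Among the higher members these were MIR22HG (adjusted p = 0.000175), DDIT4-AS1 (0.000905), PXN-AS1 (0.000998), AL451085.2 (0.00473), AL139220.2 (0.0106), AC026785.2 (0.0225) and EPB41L4A-AS1 (0.0772). Among the lower members they were AC092115.2 (0.000545), AC009630.2 (0.00145), MIR4435-2HG (0.00287), USP3-AS1 (0.0281) and LINC02086 (0.0677). MIR22HG, MIR4435-2HG and LINC02086 are the 3 of these that share under 50% of their bases with other genes. MIR22HG went from a log2 fold change of -0.35 at 1 hour to 0.88 at 9 hours, USP3-AS1 from -0.74 at 7 hours to 0.10 at 9 hours, and AC026785.2 from -0.20 at 1 hour to 0.92 at 5 hours.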

How the results depend on the processing

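Of 431 values of 36 named results under other settings, 371 kept direction and side of the threshold, 60 kept direction but no longer passed, and 0 reversed. The 36 were all calls of the main test, many of them taken at the time of the member's largest change. This choice by itself favours agreement. At 1 hour, where 2 members were called, 1 was called at a threshold of 0.05, with DESeq2 and with at least 10 counts in every library. In one fit over 24 libraries and for the most counted transcript alone it was also 1, and with no filter 6. DESeq2 called 16 at 3 hours, 33 at 5 hours and 30 at 7 hours, and one fit over 24 libraries 19 at 3 hours and 30 at 7 hours. Calls at 2 or more consecutive times were 22 with DESeq2 and 23 in one fit, against 39. Own-sequence members alone gave 1, 3, 12, 13, 6 and 4 calls from 1 to 11 hours. These are the calls of the main test with no new fit, so they do not bear on the processing. Leaving out 1 library gave 2 to 15 calls at 1 hour, 23 to 51 at 3 hours, 39 to 50 at 5 hours, 25 to 83 at 7 hours, 12 to 71 at 9 hours and 7 to 79 at 11 hours. Members with a long run numbered 82 at 10 or more bases and 18 at 20 or more, against 34, and 80 members were covered to 80%. With the replicate number as a block, 17 members were called at 1 hour and 62 at 9 hours, and 37, 53, 61 and 23 at 3, 5, 7 and 11 hours. The labels name nothing that equal numbers share, and the deviations of equally numbered libraries correlated between -0.06 and 0.14 over the 6 times. The cause of these shifts was not tested. With 2 libraries a group and no stated use of strand, a count of shared sequence cannot be given to 1 gene.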
